A study of Mus musculus with 88 samples.

Results

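Lysosomal proteins were followed in mouse dendritic cells as soluble hydrolases, soluble cofactors, membrane proteins and subunits of the vacuolar proton pump (V-ATPase). Protein groups of the full-experiment trypsin table were taken when their first gene name was one of 40 listed lysosomal genes or began with Atp6v or Atp6ap. This gave 54 groups, of which 52 of the 5899 kept groups of the table remained after a second Gaa group and Atp6v1e2 were left out as identified by a modified site alone. They were 26 hydrolases, 5 cofactors, 7 membrane proteins and 14 pump proteins (8 of the V1 sector, 4 of the V0 sector and 2 accessory). The hydrolases Ids and Aga were named in no group. The late comparison tested 46 of the 52, and Fuca1, Sgsh, Smpd1, Atp6v0a2, Atp6ap1 and Atp6ap2 had too few ratios for it.

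The cells came from bone marrow of female C57BL/6J mice, expanded in GM-CSF, and the labels name no transgene or deletion. LPS cells received lipopolysaccharide of E. coli K12 at 100 ng per ml, and mock cells received no stimulus. All cells had been grown with medium-weight arginine and lysine (M) and pooled before the stimulus, and from 0 h on all were cultured with heavy amino acids (H). Both arms were sampled at 0.5 h, hourly from 1 to 6 h, and at 9, 12 and 24 h, and shared 1 unstimulated group at 0 h, with 2 replicates in each of the 21 groups. Cells of an unlabelled mix (L) were added to every run. M/L read protein made before the switch (pre-existing), H/L protein made after it (new), and their sum total protein, each relative to the mix. GM-CSF cultures of bone marrow hold macrophage-like as well as dendritic cells, and in such lysates fewer cells of a type and less protein per cell cannot be told apart.

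Lysosomes break down proteins, glycans, lipids and nucleic acids in an acid lumen. Soluble hydrolases reach that lumen from the Golgi, mostly through mannose 6-phosphate tags and their receptors, while heavily glycosylated membrane proteins such as LAMP1 and LAMP2 line the limiting membrane. The V-ATPase pumps protons with a cytosolic V1 sector, which burns ATP, docked on a membrane V0 sector, which carries the protons. The transcription factors TFEB, TFE3 and MITF bind an E-box-centred motif near the starts of many lysosomal genes. In dendritic cells the organelle also cuts antigens for presentation, and LPS is known to change its acidity and shape as the cells mature.

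Between 68083 and 109064 pairs of M and L peptides were read per run (median 89439), 1296 to 2003 of them from the lysosomal proteins. To put runs on one scale, every M/L and H/L was divided by the typical sum of both ratios in its run (the run factor), which was taken as the median of 2628 proteins seen in every run. The factor ran from -0.68 to 0.69 on the log2 scale. LPS 12 h replicate 2 stood apart at 0.69, against -0.46 for LPS 12 h replicate 1. Ratios are divided by the factor unless stated. Such a ratio is a level relative to the typical protein of its run, not an amount per cell. Heavy signal was already read at 0 h, before heavy label was given: H/L had a median of 0.108 and 0.0858 over the hydrolases and 0.0907 and 0.0782 over the pump, against 0.142 and 0.128 over all proteins. Levels of new protein near these values have no resolved order. Nothing in the labels shows that replicates were separate cultures, so a p-value reflects only how these samples scatter, and that scatter may be technical. Harvests are described as far as 12 h in the protocols, and no source used here says how the 24 h samples were handled.

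Bases upstream of the gene starts were read for the genes of 42 of the proteins in RefSeq's GRCm38.p6 promoter table, as 250 bases before each start on the gene's strand, and searched on both strands for CACGTG (the E-box) and for the longer TCACGTGA, which contains it. A window with the E-box was held by 9 of 42 genes (21.4%), against 6.86% of all 27025 genes and 10.7% of the 4635 genes whose protein was in a kept group. TCACGTGA lay at 3 genes (7.14%), against 0.907% and 2.33%. The 9 genes were the hydrolase genes Arsa, Dpp7, Gaa, Gla, Glb1, Naglu and Sgsh, the membrane protein gene Lamp1 and the pump gene Atp6v1a. A window without a match says only that these letters are not in it. The windows of the 3 genes with the longer motif, of Lamp1 with its 4 E-boxes, and of Man2b1, the hydrolase with the smallest p-value in new protein, follow 5′ to 3′ with the matches in capitals. They are at chrX:134601006-134601255 on the minus strand for Gla, chr2:25356333-25356582 on the minus strand for Dpp7, chr16:44139260-44139509 on the minus strand for Atp6v1a, chr8:13158911-13159160 on the plus strand for Lamp1 and chr8:85083019-85083268 on the plus strand for Man2b1.
Gla: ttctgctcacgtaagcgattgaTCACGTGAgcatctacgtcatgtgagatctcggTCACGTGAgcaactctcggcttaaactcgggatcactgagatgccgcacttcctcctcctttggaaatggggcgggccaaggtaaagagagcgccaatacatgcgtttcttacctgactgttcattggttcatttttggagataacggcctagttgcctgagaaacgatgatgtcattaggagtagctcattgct
Dpp7: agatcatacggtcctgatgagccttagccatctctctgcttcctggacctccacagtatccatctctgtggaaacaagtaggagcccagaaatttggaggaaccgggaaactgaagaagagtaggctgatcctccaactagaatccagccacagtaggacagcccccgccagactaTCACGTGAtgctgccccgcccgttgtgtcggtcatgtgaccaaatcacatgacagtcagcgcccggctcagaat
Atp6v1a: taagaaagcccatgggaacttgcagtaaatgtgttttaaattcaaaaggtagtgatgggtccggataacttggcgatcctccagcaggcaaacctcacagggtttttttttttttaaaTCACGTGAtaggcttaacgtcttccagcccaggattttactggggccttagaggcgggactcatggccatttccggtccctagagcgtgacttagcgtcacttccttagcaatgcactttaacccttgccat
Lamp1: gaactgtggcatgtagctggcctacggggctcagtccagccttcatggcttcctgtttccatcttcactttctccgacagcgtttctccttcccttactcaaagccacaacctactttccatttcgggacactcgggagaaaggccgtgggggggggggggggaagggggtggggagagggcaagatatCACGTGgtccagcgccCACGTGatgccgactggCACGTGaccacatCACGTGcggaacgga
Man2b1: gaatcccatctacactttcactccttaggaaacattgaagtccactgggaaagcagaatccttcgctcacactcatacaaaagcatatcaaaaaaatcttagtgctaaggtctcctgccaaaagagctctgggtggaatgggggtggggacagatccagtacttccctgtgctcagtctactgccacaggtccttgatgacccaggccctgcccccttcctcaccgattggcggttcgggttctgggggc

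Of the 5 genes shown, Gla held 2 copies of TCACGTGA, Dpp7 and Atp6v1a 1 each, and Man2b1 none of the searched letters. The E-box shares are descriptions of these letters and say nothing of binding.

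In unstimulated cells the lysosomal proteins made up 1.22% and 1.37% of the summed iBAQ of the 2 replicates (iBAQ scales the intensity of a protein to how many peptides it can yield, so that levels compare between proteins). The V1 sector held 0.505% and 0.482%, the cofactors 0.451% and 0.654%, the hydrolases 0.17% and 0.146%, the membrane proteins 0.0727% and 0.0607%, and the V0 sector 0.0254% and 0.0286%. Prosaposin (Psap), the precursor of the saposins, sphingolipid activators, was the most abundant member with 3098 and 5285 ppm.

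Among pump subunits, those present in multiple copies per V1 sector stood above the single-copy ones in trypsin and LysN digests, and in mean in AspN digests. The ATP-binding subunit A (Atp6v1a) had 1060 and 832 ppm, its partner B (Atp6v1b2) 1050 and 1121, and the peripheral stalk subunits E and G (Atp6v1e1 and Atp6v1g1) 822 and 1125, and 1489 and 1060. The single-copy subunits C, D, F and H (Atp6v1c1, Atp6v1d, Atp6v1f and Atp6v1h) lay between 102 and 249 in replicate 1 and between 133 and 202 in replicate 2. The mean of A, B, E and G was 7.09 and 6.10 times that of C, D, F and H after trypsin, 3.00 and 3.89 times after AspN and 8.86 and 7.69 times after LysN digestion. In the first AspN digest the ranges overlapped, with up to 595.7 ppm among C, D, F and H and no less than 554.2 among A, B, E and G. The V0 subunit a1 (Atp6v0a1), an integral membrane protein, had 20.1 and 19.3 ppm and the peripheral V0 subunit d1 (Atp6v0d1) 181 and 242.

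**Figure D1:**
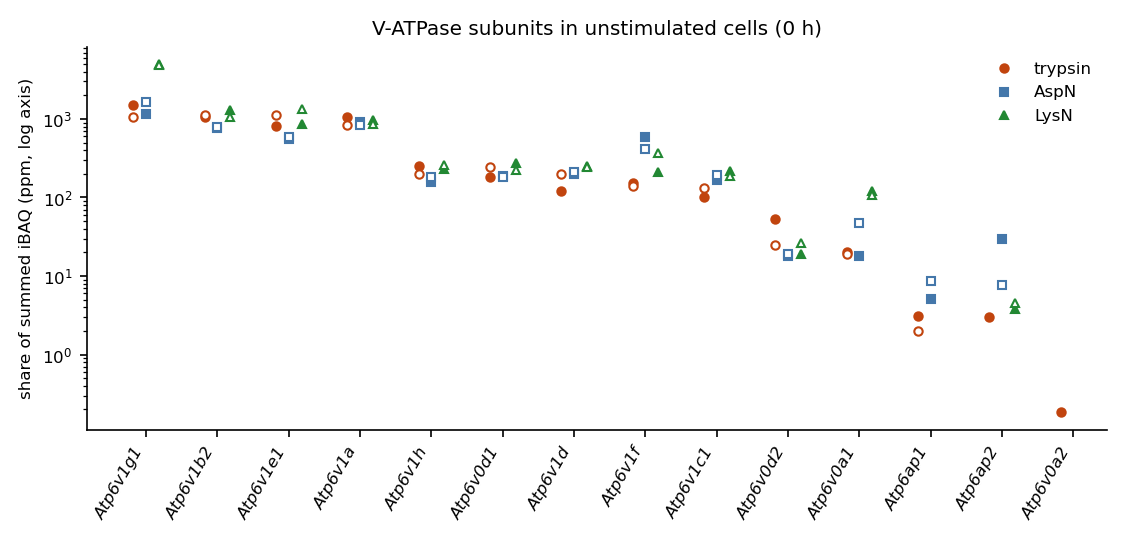
Share of each V-ATPase subunit in the summed iBAQ at 0 h (ppm of the sum, log axis), with 1 column of points per gene and filled and open symbols for replicates 1 and 2 of 3 digestions. In trypsin digests subunits A, B, E and G lie between 822 and 1489 ppm and C, D, F and H between 102 and 249.

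Without a stimulus, the lysosomal lumen proteins rose with time in culture. In mock cells at 9 and 12 h total protein was called higher than at 0 h for 31 of 45 members tested and lower for none, while 7.47% of all 3158 proteins were called higher and 4.81% lower (limma, adjusted p under 0.05, 4 mock against 2 baseline samples). The median log2 change was 0.46 over the members and 0.00 over all proteins. Hydrolases rose in 19 of 22 cases, from 0.33 (Pla2g15, a lysosomal phospholipase) to 0.66 (Gla, alpha-galactosidase A). Cofactors rose in 4 of 5, with Psap at 0.55 ± 0.05 (SE, limma adjusted p = 1.2e-07) and progranulin (Grn), a secreted glycoprotein cut into granulins in lysosomes, at 0.53 ± 0.05.

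Of 7 membrane proteins 3 rose: the sialomucin Cd68 by 1.12 ± 0.15, Lamp1 by 0.61 ± 0.11 and the nuclease Pld3, made as a membrane protein, by 0.58 ± 0.05. The pump rose less in median (0.16) and in 5 of 11 subunits, namely Atp6v1a, Atp6v1b2 and Atp6v1e1 by 0.21 each, Atp6v1f by 0.37 and Atp6v0d1 by 0.29. Whether the classes differed was not tested, since classes of chosen members get no p-value here. Without the run factor 0 proteins of any kind were called in this comparison, the median of the members was 0.25 and that of all proteins -0.24. The factor is shared by all proteins of a run, so leaving it out lowered each subunit about as far as the median of all proteins. The pump median of 0.16 and the changes of 0.21 were smaller than that shift, so their direction rests on the factor.

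In LPS cells at 9 and 12 h the same comparison with 0 h called 6 of 45 members higher (6.09% of all proteins) and none lower (2.07%), with a member median of 0.11. The 6 were Cd68 (0.62 ± 0.15), Lamp1 (0.37 ± 0.11), Grn (0.17 ± 0.05) and the hydrolases Dpp7 (0.19 ± 0.06), Scpep1 (0.27 ± 0.06) and Tpp1 (0.29 ± 0.08). At 24 h LPS cells had 6 members above 0 h (9.57% of all proteins) and 1, Psap, below it (-0.20 ± 0.06, 6.06% of all proteins lower), with a median of 0.12. The 6 were Npc2 (0.90 ± 0.20), Acp5 (0.72 ± 0.17), Grn (0.27 ± 0.06), Atp6v1a (0.20 ± 0.04), Atp6v1h (0.19 ± 0.06) and Atp6v1b2 (0.15 ± 0.05). Mock cells at 24 h had 37 of 45 above 0 h (18.5% of all proteins), with a median of 0.92. The hydrolase median at 24 h was 0.10 in LPS and 1.00 in mock cells, and that of V1 was 0.17 in LPS and 0.44 in mock cells. All these comparisons share the 2 baseline samples, so their values are given side by side only. Those of LPS cells, and of mock cells at 24 h, were fitted with the run factor only.

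**Figure D2:**
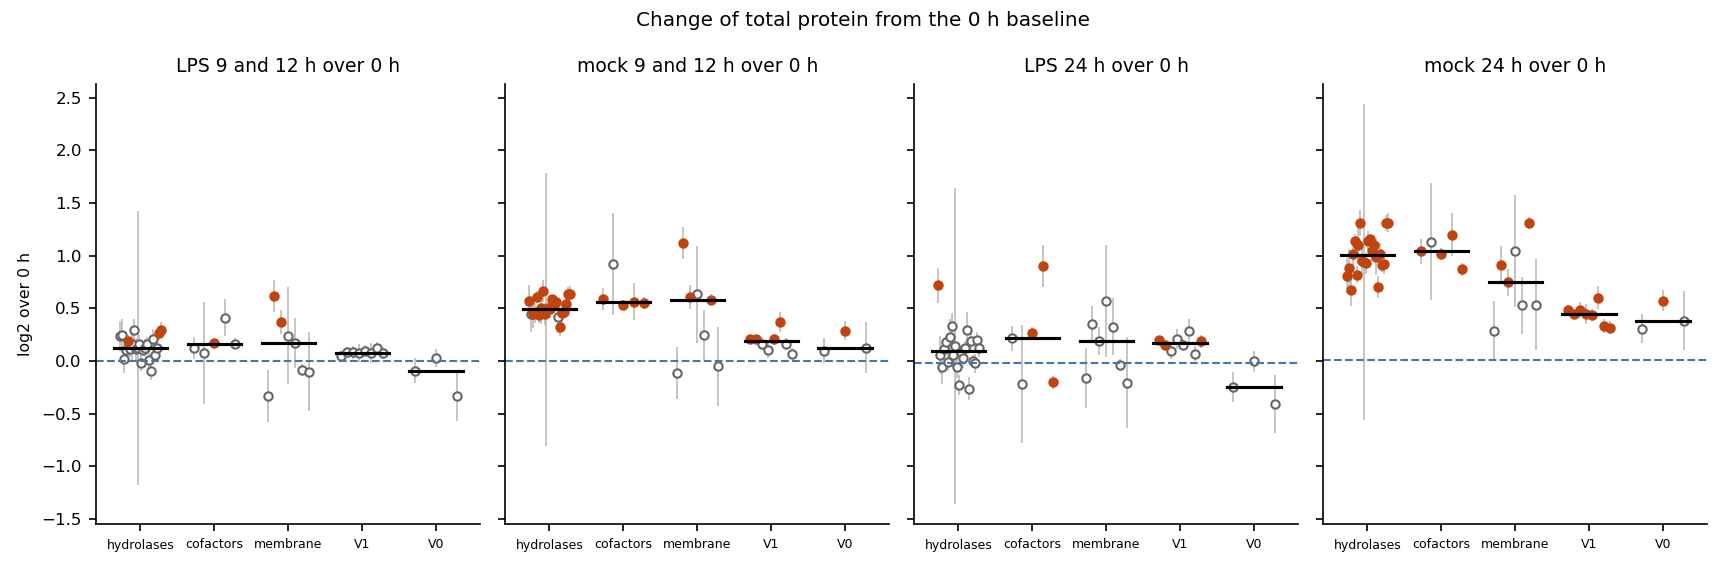
Log2 change of total protein from 0 h for each lysosomal protein (points, with the SE from limma as bars), by class, in LPS and mock cells at 9 and 12 h and at 24 h; red points are called at adjusted p under 0.05, black bars are class medians and the dashed line is the median of all proteins. At 24 h the hydrolase median is 0.10 in LPS and 1.00 in mock cells.

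The rise in mock cells was also read in M/L, although the cells had been given no M amino acids since 0 h per the labels. M/L is relative to the run, so its rise does not by itself show more protein made before the switch. The cause of the rise was not tested. Hydrolases had a median M/L of 0.905 and 0.852 in mock cells at 12 h and 1.1 and 1.15 at 24 h, against 0.604 and 0.632 at 0 h. Over all proteins the medians were 0.778 and 0.8 at 12 h, against 0.863 and 0.857 at 0 h. In mock cells at 9 and 12 h, M/L was called higher than at 0 h for 27 of 45 members (7.22% of 3312 proteins) and lower for 1, Pld3 (-0.20, 23.7% of all proteins lower), with 19 of 22 hydrolases among the higher ones. At 24 h it was higher for 28 of 46 (11.8% of all proteins) and lower for Pld3 alone (-0.21 ± 0.06, 49.8% of all proteins lower), with medians of 0.64 over the members and -0.29 over all proteins.

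**Figure D3:**
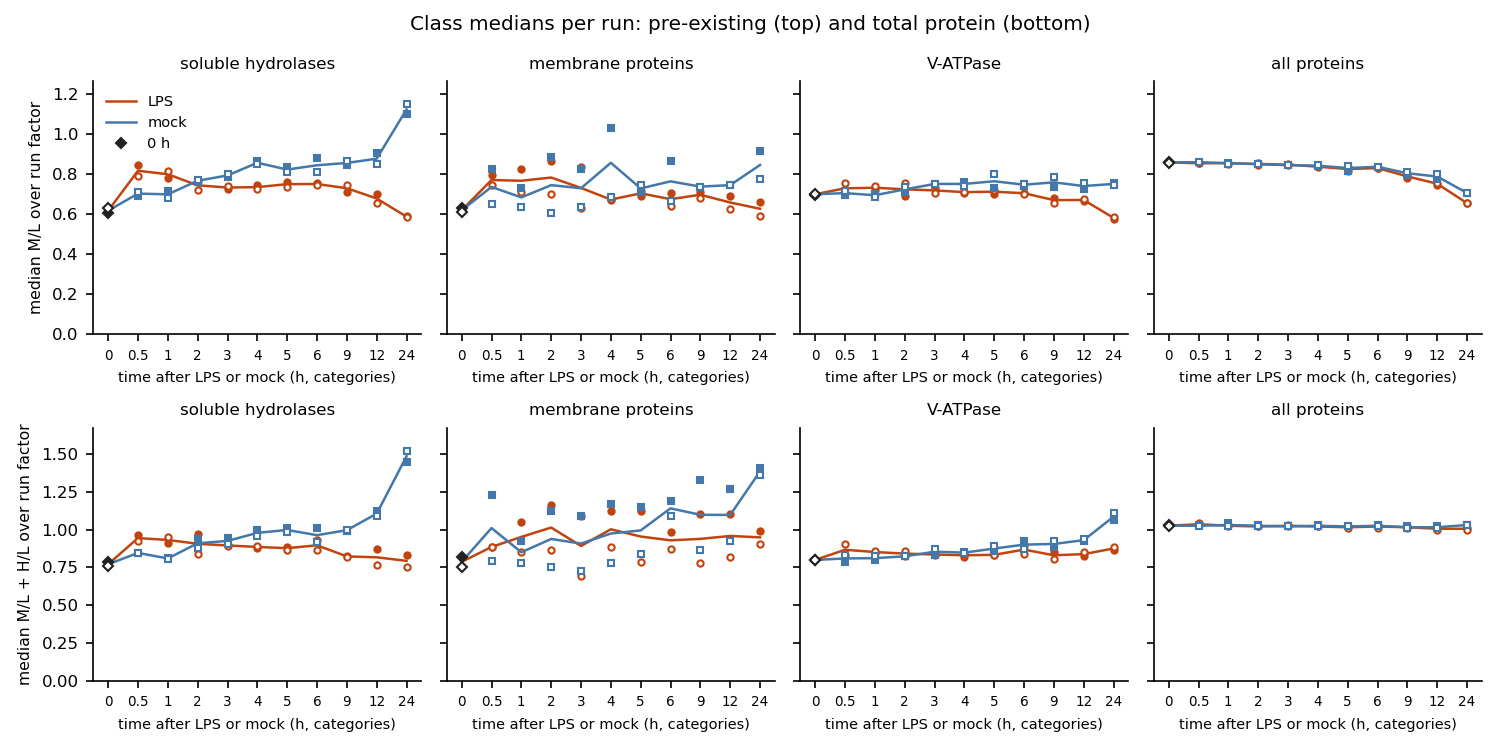
Median M/L (top) and median M/L plus H/L (bottom) of each class in every run, both divided by the run factor, against time as equally spaced categories; filled and open symbols are replicates 1 and 2, lines join group means, and diamonds are the 0 h samples that both arms share. Hydrolase M/L lies at 0.704 and 0.654 in LPS and at 0.905 and 0.852 in mock cells at 12 h, and the pump at 0.667 and 0.676 in LPS and at 0.725 and 0.758 in mock cells.

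Relative to the typical protein of a run, LPS cells held less pre-existing lysosomal protein than mock cells from 6 to 12 h. M/L was called lower for 30 of 46 members and higher for none, while 13.6% of 3432 proteins were called lower and 3.53% higher (limma, 6 LPS against 6 mock samples). The median log2 change was -0.29 over the members and -0.02 over all proteins. The soluble hydrolases moved by nearly the same amount: all 23 lay between -0.38 and -0.21, 20 of them called, and their middle quartiles spanned -0.32 to -0.27, against -0.14 to 0.06 over all proteins. The LPS and mock samples did not overlap for 22 of the 46 members, and 37 were lower in LPS in every pair of the same time and replicate number. Neither count was made over all proteins, so neither shows a trait particular to lysosomal proteins. Over these samples the summed total ratio of 5 macrophage markers was also lower, 3.28 to 3.97 in LPS and 5.48 to 6.82 in mock cells. So was that of 5 granulocyte markers, 7.54 to 9.93 in LPS and 10.6 to 13.9 in mock cells. The sum of 4 dendritic cell markers overlapped between the arms. Not every marker fell, as Fcgr1 of the macrophage and S100a9 of the granulocyte list read higher in LPS cells. The part of these shifts in the lysosomal values was not tested.

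Man2b1, the lysosomal alpha-mannosidase that trims N-glycans, had M/L of 0.581, 0.621 and 0.678 (lowest, median and highest) in LPS cells and 0.748, 0.771 and 0.82 in mock cells. The groups did not overlap, and the change was -0.32 ± 0.02 (limma adjusted p = 4.25e-10). Lipa, the acid lipase that splits cholesteryl esters, had M/L of 0.468, 0.511 and 0.597 in LPS and 0.606, 0.621 and 0.638 in mock cells, again apart. Acid ceramidase (Asah1) had 0.579, 0.661 and 0.789 in LPS and 0.724, 0.774 and 0.851 in mock cells, where the ranges overlapped but all 6 pairs ran the same way. The changes were -0.26 ± 0.05 (limma adjusted p = 0.000527) for Lipa and -0.24 ± 0.06 (0.00912) for Asah1.

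Called glycosidases changed by between -0.38 ± 0.05 (the beta-mannosidase Manba) and -0.24 ± 0.06 (the beta-galactosidase Glb1), with the sialidase Neu1 (-0.34 ± 0.08), the hexosaminidase subunit Hexa, alpha-galactosidase Gla, heparan-degrading Naglu and glycogen-degrading Gaa (each -0.29) between them. Of the glycosaminoglycan and sulfolipid enzymes, the sulfatases Arsb (-0.28 ± 0.08) and Arsa (-0.23 ± 0.06) fell, and Idua (-0.28 ± 0.16) and Galns (-0.21 ± 0.08) did not pass the test. All 4 peptidases fell, Scpep1 (-0.32 ± 0.05), Dpp7 (-0.32 ± 0.03), Prcp (-0.31 ± 0.06) and Tpp1 (-0.30 ± 0.04). Pla2g15 (-0.33 ± 0.05), the thioesterase Ppt1 (-0.29 ± 0.04), Plbd2 (-0.25 ± 0.05) and the phosphatase Acp5 (-0.34 ± 0.07) fell as well.

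Gusb, beta-glucuronidase, had the same change, -0.29, but an SE of 0.95. Its M/L at 6, 9 and 12 h was 1.1, 1.02 and 1.04 in LPS and 1.27, 1.21 and 1.39 in mock cells of replicate 1, and 0.213, 0.168 and 0.19 in LPS and 0.229, 0.238 and 0.225 in mock cells of replicate 2. Each replicate number showed LPS below mock at every one of these times. Replicate 1 was the higher in all 21 groups, by 2.40 on the log2 scale in median (5.28-fold). Of the other members only Gm2a (0.84) and Lamp2 (0.79) had a gap between the replicate numbers above 0.5, and 42 of 46 had one under 0.25. Same-numbered runs deviated together in M/L, and with the replicate number as a block Gusb passed (-0.29 ± 0.04, limma adjusted p = 1.39e-05). So did Galns, Npc2 (-0.30 ± 0.05, adjusted p = 8.5e-05), Gm2a (-0.72 ± 0.20, adjusted p = 0.0117) and Lamp1 (-0.18 ± 0.05, adjusted p = 0.0153). Lamp2 (-0.52 ± 0.11, adjusted p = 0.00112), Atp6v1b2 (-0.07 ± 0.02, adjusted p = 0.0358) and Atp6v1g1 (-0.09 ± 0.02, adjusted p = 0.00481) passed too, which brought the count to 38. The 38 is given without the share of all proteins, so it shows only that the count depends on the block.

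**Figure D4:**
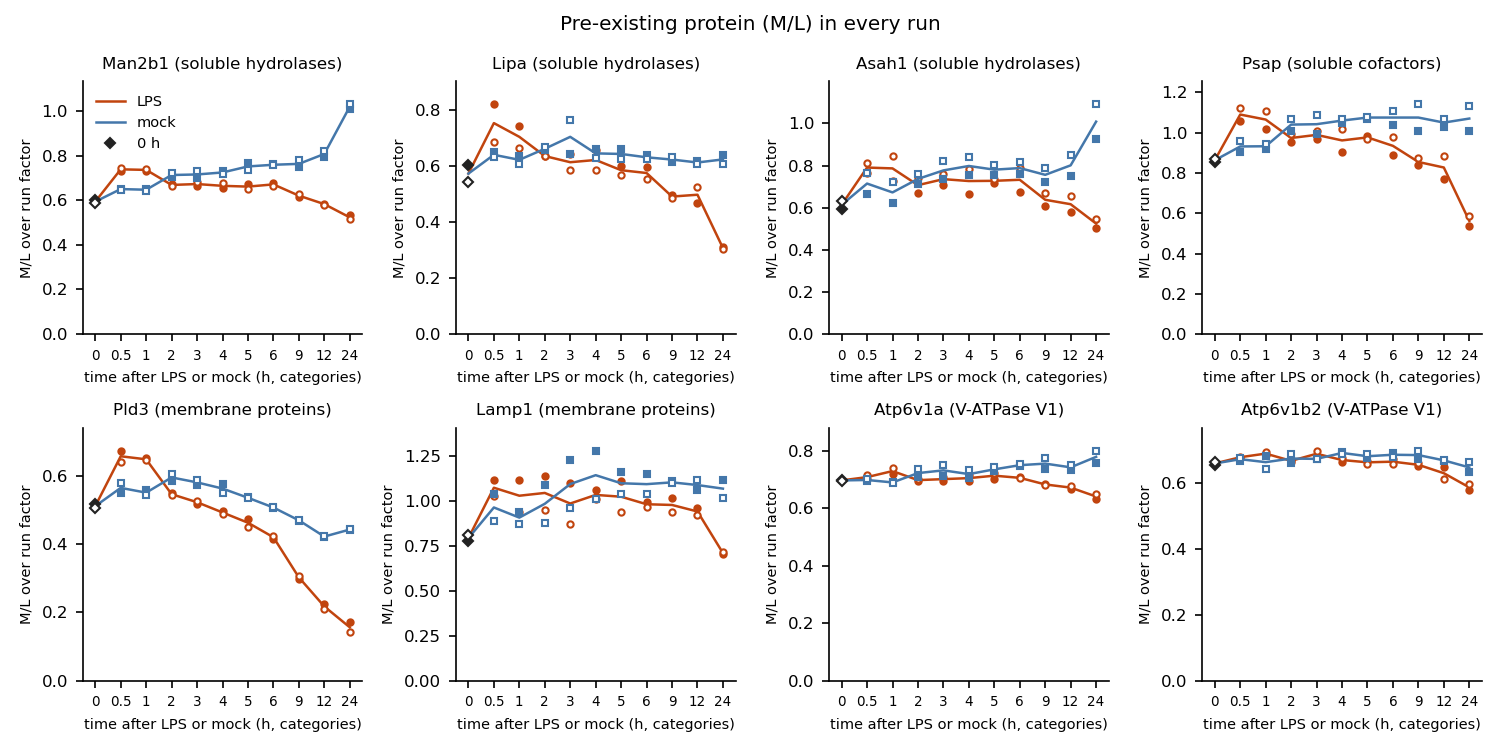
M/L divided by the run factor in every run for 8 lysosomal proteins, against time as equally spaced categories; filled and open symbols are replicates 1 and 2, lines join group means and diamonds are the shared 0 h samples. Man2b1 lies at 0.532 and 0.515 in LPS and at 1.01 and 1.03 in mock cells at 24 h, and Pld3 at 0.171 and 0.141 in LPS and at 0.441 and 0.443 in mock cells.

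Of the cofactors, Psap, Grn and Creg1 were called lower. Psap had M/L of 0.769, 0.879 and 0.979 in LPS and 1.01, 1.06 and 1.14 in mock cells, without overlap (-0.29 ± 0.05, limma adjusted p = 5.2e-05). Grn changed by -0.33 ± 0.03 and the glycoprotein Creg1 by -0.31 ± 0.07. The ganglioside activator Gm2a (-0.72 ± 0.34) and the cholesterol carrier Npc2 (-0.30 ± 0.12) passed only with the block.

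The membrane proteins did not move alike. Pld3 had the smallest p-value among them, with M/L of 0.21, 0.302 and 0.424 in LPS cells and 0.42, 0.469 and 0.507 in mock cells. The highest LPS value lay just above the lowest mock value, and the change was -0.62 ± 0.03 (limma adjusted p = 4.73e-12). Cd68 (-0.45 ± 0.09) and Acp2, an acid phosphatase made as a membrane precursor (-0.28 ± 0.07), fell too. Lamp1 had 0.923, 0.965 and 1.02 in LPS and 1.04, 1.1 and 1.15 in mock cells, apart but not called (-0.18 ± 0.08, limma adjusted p = 0.128). The cholesterol exporter Npc1 (-0.07 ± 0.13) and the glucocerebrosidase receptor Scarb2 (0.02 ± 0.16) did not pass.

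The pump changed by smaller amounts, with a median of -0.12 over 11 subunits and -0.08 over the 8 of V1, 4 of 11 being called lower. Atp6v1a had M/L of 0.667, 0.683 and 0.707 in LPS and 0.734, 0.749 and 0.775 in mock cells, without overlap, and fell by 0.13 ± 0.02 (limma adjusted p = 0.000585), a direction that turned to 0.04 without the run factor. Its partner Atp6v1b2 had 0.612, 0.653 and 0.673 in LPS and 0.666, 0.676 and 0.697 in mock cells (-0.07 ± 0.02). Atp6v1e1 (-0.20 ± 0.04), the rotor subunit Atp6v1f (-0.23 ± 0.07) and Atp6v0d1 (-0.17 ± 0.04) fell. Atp6v0d2, the other d subunit, which macrophages and osteoclasts express, read -0.31 ± 0.16 and did not pass, and Atp6v1c1, Atp6v1d and Atp6v1h lay between -0.07 and -0.06. The run factor is shared by all proteins of a run, so leaving it out raised all 11 subunits as much as Atp6v1a. The medians of the pump and of V1, nearer to 0 than Atp6v1a, thus turned above 0 as well.

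The M/L calls of Arsb and Atp6v1f were lost when some single late runs were left out. None of the 30 calls held when the run factor alone was left out. Without it 0 of the 46 were called in M/L, where the medians became -0.12 over the members and 0.15 over all proteins. Without the factor but with the replicate block, 2 of the 30 calls held. With LPS 12 h replicate 2 left out as well, 28 were called lower. The medians were then -0.22 over the members and 0.03 over all proteins. In total and new protein of these times 0 were called without the factor. With the block added, 3 of the 28 total and 2 of the 5 new protein calls held. Leaving out that run too gave 26 and 6 members called. The settings with the block and no factor were chosen after the data were seen. Their counts are given without the share of all proteins, so they show only how a count moves with the setting.

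**Figure D5:**
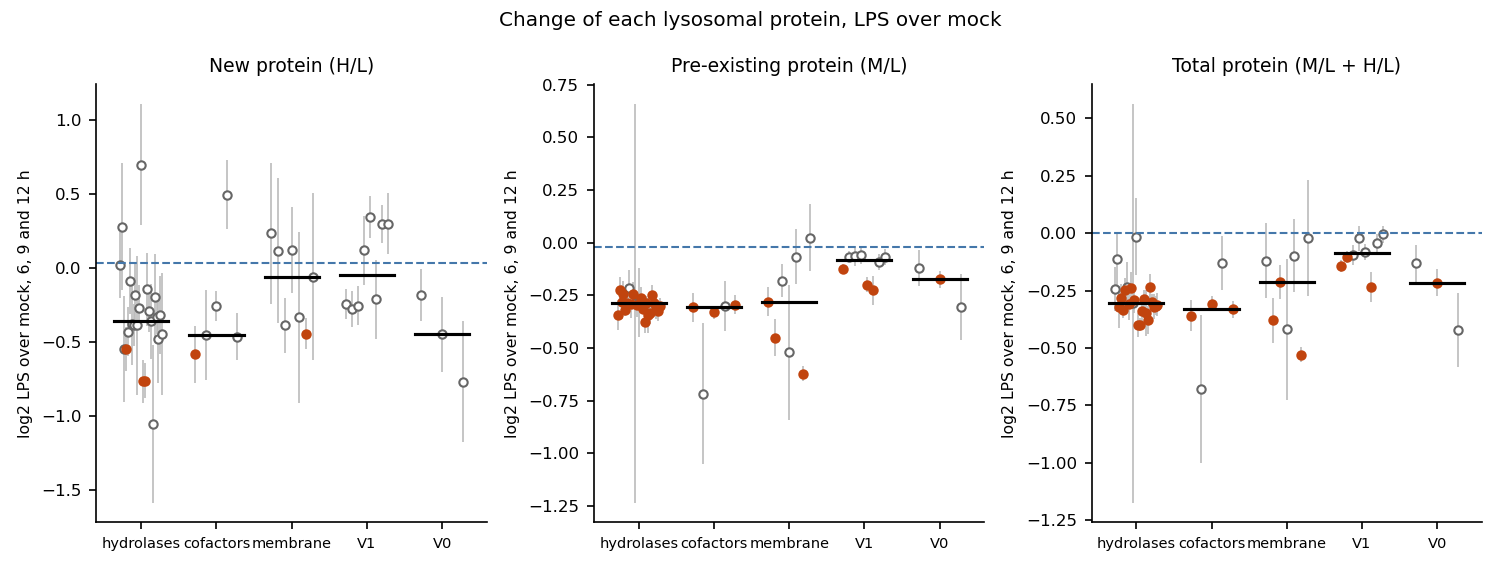
Log2 change, LPS over mock at 6, 9 and 12 h, of each lysosomal protein (points, with the SE from limma as bars) by class, for new, pre-existing and total protein; red points are called at adjusted p under 0.05, black bars are class medians and the dashed line is the median of all proteins. Pre-existing hydrolases lie between -0.38 and -0.21, and V1 subunits between -0.23 and -0.06.

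Total lysosomal protein followed. It was called lower for 28 of 46 members and higher for none, while 9.59% of 3316 proteins were called lower and 10.2% higher, with medians of -0.29 over the members and 0.00 over all proteins. Of 23 hydrolases 18 fell, led by Lipa (-0.40 ± 0.05, limma adjusted p = 4.7e-06) and Man2b1 (-0.40 ± 0.03, adjusted p = 6.39e-11). Their totals were 0.615, 0.659 and 0.723 for Lipa and 0.702, 0.746 and 0.78 for Man2b1 in LPS cells, and 0.763, 0.889 and 0.989 for Lipa and 0.902, 0.97 and 1.09 for Man2b1 in mock cells. Neither overlapped between the arms, as was so for 15 of the 46 members, a count not made over all proteins. With summed channel intensities in place of the ratios 14 of the 46 were called lower, a count given without the share of all proteins. The 5 hydrolases not called were Acp5 (-0.24 ± 0.10), Galns, Arsa, Idua and Gusb, which was lower in LPS in 6 of 6 pairs. With the replicate block Gusb (-0.31 ± 0.04, limma adjusted p = 3.63e-06), Acp5 (adjusted p = 0.0334), Lamp2 (-0.42 ± 0.12), Gm2a, Atp6v0d2, Atp6v1c1 and Atp6v1e1 were called lower as well.

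Among cofactors Creg1 (-0.36 ± 0.07), Psap (-0.33 ± 0.04) and Grn (-0.31 ± 0.03) fell. Psap totals were 1.03, 1.13 and 1.17 in LPS and 1.35, 1.39 and 1.51 in mock cells. Of the membrane proteins Pld3 fell by 0.53 ± 0.03, with totals of 0.514, 0.567 and 0.635 in LPS and 0.754, 0.838 and 0.923 in mock cells. Cd68 fell by 0.38 ± 0.10 and Lamp1 fell by 0.21 ± 0.08 (limma adjusted p = 0.047), a call lost, like those of Arsb, Glb1 and Neu1, when some single late runs were left out.

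In the pump Atp6v1f (-0.23 ± 0.06), Atp6v0d1 (-0.22 ± 0.06), Atp6v1a (-0.14 ± 0.03) and Atp6v1b2 (-0.10 ± 0.03) fell in total protein, the last 2 turning to 0.02 and 0.06 without the run factor. Atp6v1a totals lay at 0.799, 0.801 and 0.808 in LPS cells and 0.851, 0.882 and 0.916 in mock cells. The 6 LPS samples sat closer together than the mock samples and did not overlap them. Atp6v1h (-0.01 ± 0.04) and Atp6v1d (-0.02 ± 0.06) were the subunits nearest to 0.

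New lysosomal protein was lower in LPS cells for fewer members. H/L was called lower for 5 of 46 and higher for none, while 1.75% of 3316 proteins were called lower and 10.6% higher, and 15 members had an unadjusted p under 0.05 (19.8% of all proteins). The member median was -0.28 and that of all proteins 0.03, and with the deposited normalised ratios 19 members were called lower. The 19 is given without the share of all proteins, so it shows only that the count depends on the ratios used. Man2b1 had H/L of 0.101, 0.122 and 0.146 in LPS and 0.145, 0.206 and 0.269 in mock cells, against 0.0702 and 0.103 at 0 h. The arms met at the edge, all 6 pairs were lower in LPS, and the change was -0.76 ± 0.12 (limma adjusted p = 3.63e-05).

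Lipa had H/L of 0.107, 0.136 and 0.197 in LPS and 0.14, 0.266 and 0.383 in mock cells, against 0.113 and 0.0695 at 0 h (-0.76 ± 0.15, limma adjusted p = 0.000451). Pld3 had 0.21, 0.262 and 0.336 in LPS and 0.249, 0.369 and 0.5 in mock cells (-0.44 ± 0.10, limma adjusted p = 0.00326). Asah1 had 0.0685, 0.1 and 0.109 in LPS and 0.0995, 0.145 and 0.167 in mock cells (-0.55 ± 0.15, limma adjusted p = 0.0132). In each of these the ranges overlapped and LPS was lower in 6 of 6 pairs. Creg1 was the other call (-0.58 ± 0.19, limma adjusted p = 0.045), and it and Asah1 were lost when some single late runs were left out. With the 0 h reading subtracted, 0 of the 34 members that could be tested were called. In LPS cells at 9 and 12 h, H/L was called above 0 h for Pld3 (2.03 ± 0.15), Lipa (0.84 ± 0.22), Asah1 (0.73 ± 0.22) and Man2b1 (0.60 ± 0.18), where 31.7% of 3184 proteins were, and not for Creg1 (0.61 ± 0.28).

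Over the classes, the H/L median was -0.36 for hydrolases (3 of 23 called, from -1.05 ± 0.53 for Pla2g15 to 0.70 ± 0.41 for Idua), -0.45 for cofactors (1 of 5, Npc2 the highest at 0.50 ± 0.23), -0.06 for membrane proteins (1 of 7, Acp2 the highest at 0.24 ± 0.48) and -0.21 for the pump (0 of 11). Pump subunits lay on both sides of 0, from Atp6v0d2 at -0.77 ± 0.41 to Atp6v1e1 at 0.35 ± 0.14 (limma adjusted p = 0.137). Atp6v1a had H/L of 0.0938, 0.121 and 0.133 in LPS and 0.104, 0.137 and 0.164 in mock cells, and Atp6v1b2 read -0.27 ± 0.12. Neither passed the test.

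At 1, 2 and 3 h no member was called in new protein (0 of 46, with 2 at an unadjusted p under 0.05, where 0.475% and 5.64% of 3371 proteins passed these thresholds). The change of the LPS effect between early and late times was itself called for 3 hydrolases, Lipa (-0.81 ± 0.21, limma adjusted p = 0.0139), Asah1 (-0.75 ± 0.21, 0.0291) and Man2b1 (-0.73 ± 0.17, 0.0056), while 0.922% of 3144 proteins were called lower. With the deposited normalised ratios 21 members were called, a count given without the share of all proteins. In pre-existing protein the late minus early change was called lower for 21 of 46 members (5.17% of 3325 proteins) and in total protein for 21 of 46 (4.23% of 3144).

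The balance of new to pre-existing protein, H/M, was called for 5 members, in both directions. It was lower in LPS cells for Lipa (-0.53 ± 0.13, limma adjusted p = 0.00633) and Man2b1 (-0.38 ± 0.10, adjusted p = 0.0145), where 1.03% of 3316 proteins were lower. It was higher for Npc2 (0.82 ± 0.21, adjusted p = 0.0076), Atp6v1e1 (0.55 ± 0.14, adjusted p = 0.0076) and Atp6v1g1 (0.40 ± 0.13, adjusted p = 0.0348), where 11.4% were higher. The calls of Man2b1 and Atp6v1g1 were lost when some single late runs were left out. With the deposited normalised ratios the sign turned, to -0.02 for Atp6v1e1 and -0.22 for Atp6v1g1. Npc2 had H/M of 0.205, 0.332 and 0.568 in LPS and 0.152, 0.189 and 0.216 in mock cells, LPS being higher in 5 of 6 pairs. Its H form was 56.8% and 57.3% of M plus H in LPS cells at 24 h and 28.5% and 29.9% in mock cells.

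Replacement was read as the fall per h of the log2 M share, fitted from 0.5 to 12 h, with a half-time that takes no account of growth. In mock cells the replacement slope was called negative for 23 of 46 members (35.4% of 3459 proteins), with a median of -0.00901 per h, against -0.0083 over all proteins. Pld3 was replaced fastest among the members, with a half-time of 12.1 h, and its H form reached 58.4% and 58.8% in LPS cells and 53.6% and 54% in mock cells at 12 h. Lamp1 had a half-time of 64.0 h, Atp6v1b2 of 54.6 h and Atp6v1a of 95.3 h. The hydrolase median was -0.0039 per h, with 9 of 23 called, and V1 had 6 of 8 called.

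The slope differed between LPS and mock cells for 7 members. It was less steep in LPS cells for Lipa (by 0.0207 ± 0.0035 per h, limma adjusted p = 2.83e-05), Man2b1 (0.0085 ± 0.0020, adjusted p = 0.00189) and Atp6v1b2 (0.0069 ± 0.0023, adjusted p = 0.0374), where 1.74% of 3342 proteins were so. It was steeper for Npc2 (-0.0248 ± 0.0053, adjusted p = 0.000677), Atp6v1e1 (-0.0135 ± 0.0035, adjusted p = 0.00498), Pld3 (-0.0120 ± 0.0039, adjusted p = 0.0346) and Atp6v1g1 (-0.0064 ± 0.0020, adjusted p = 0.024), where 12.1% of proteins were. Of the V1 subunits, B was called less steep and E and G steeper, while A, C, D, F and H were not called. Whether this follows their place in the pump was not tested. With 0.5 to 24 h in the slope, 13 members were called, a count given without the share of all proteins.

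Hour by hour, pre-existing lysosomal protein in LPS cells passed from above to below that in mock cells. The member median of the M/L change was 0.19 at 0.5 and 1 h, -0.07 at 2 h, -0.09 at 3 h, -0.13 at 4 h, -0.12 at 5 h, -0.15 at 6 h, -0.30 at 9 h, -0.38 at 12 h and -0.86 at 24 h, with 2 samples per arm and time, and that of all proteins stayed between -0.07 and 0.01. At 0.5 h Dpp7 (0.26 ± 0.05, limma adjusted p = 0.0114) and Man2b1 (0.18 ± 0.04, adjusted p = 0.0216) were called higher, where 1.16% of all proteins were. Total protein was higher at 0.5 h for Scpep1 (0.31 ± 0.07), Psap (0.27 ± 0.06), Pld3 (0.26 ± 0.06) and Man2b1 (0.21 ± 0.05), where 0.722% of all proteins were.

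The first lower call in M/L was Man2b1 at 5 h (-0.19 ± 0.04, 0.408% of all proteins lower), joined by Pld3 at 6 h (-0.27 ± 0.06, 0.572% lower). At 9 h 17 of 44 members were lower (4.36% of all proteins) and at 12 h 23 of 45 (10.4%). The pump median stayed between -0.07 and 0.08 through 6 h and was -0.14 at 9 and 12 h. In new protein Man2b1 (-0.72 ± 0.20) and Lipa (-0.93 ± 0.25) were lower at 9 h (0.502% of all proteins), and these with Pld3 (-0.61 ± 0.17) and Ppt1 (-0.90 ± 0.20) at 12 h (1.09%).

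At 24 h the changes were widest. M/L was lower for 40 of 45 members (27.6% of 3136 proteins), with medians of -0.94 over 22 hydrolases, 21 of them called, and -0.36 over the pump, all 11 subunits called. M/L at 24 h was fitted with the run factor only. In replicates 1 and 2 the log2 factor was -0.52 and -0.04 in LPS and -0.68 and -0.35 in mock cells. Dividing by it thus lowered LPS relative to mock. Man2b1 had M/L of 0.532 and 0.515 in LPS and 1.01 and 1.03 in mock cells, against 0.601 and 0.587 at 0 h. Pld3 had 0.171 and 0.141 in LPS and 0.441 and 0.443 in mock cells, against 0.517 and 0.504 at 0 h (-1.51 ± 0.06, limma adjusted p = 3.8e-15). For Man2b1 the LPS level had come slightly under that of 0 h while the mock level was far above it, and for Pld3 both had dropped below 0 h.

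Total protein at 24 h was lower for 35 of 45 members (20.1% of 3095 proteins) with a median of -0.80, and new protein for 12 of 45 (2.33% of 3095) with a median of -0.74. Lipa totals were 0.558 and 0.57 in LPS and 1.48 and 1.43 in mock cells (-1.37 ± 0.09), and Psap totals 0.827 and 0.886 in LPS and 1.7 and 1.91 in mock cells (-1.07 ± 0.06). The new protein calls were Lipa (-1.70 ± 0.25), Man2b1 (-1.31 ± 0.20), Dpp7, Gla, Naglu, Ppt1, Hexa and Asah1 (-1.15 to -0.81), Psap (-1.31 ± 0.27), Gm2a (-1.64 ± 0.53), Pld3 (-1.29 ± 0.18) and the V0 subunit Atp6v0a1 (-0.96 ± 0.31). Lipa H/L stood at 0.249 and 0.265 in LPS and 0.844 and 0.825 in mock cells. No V1 subunit was called in new protein (0 of 8, 2 at an unadjusted p under 0.05, as for 19.8% of all proteins), whose median was -0.14, and 6 of 8 were lower in total protein, with a median of -0.29. All 3 V0 subunits were lower in total protein, Atp6v0d2 (-0.79 ± 0.28), Atp6v0d1 (-0.58 ± 0.10) and Atp6v0a1 (-0.55 ± 0.14). Without the run factor 0 of 45 members were called in total and 1 in new protein at 24 h, where the member medians were -0.56 and -0.50 and those of all proteins 0.25 and 0.30, and with the replicate block added 26 and 10 were called. With the deposited normalised ratios 20 were called in total protein. The counts of these alternatives are given without the share of all proteins.

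Other lysosomal proteins, taken from lists of hydrolases, sorting factors, membrane proteins, signalling adaptors, pump assembly factors and transcription factors, were set beside these. All 16 other hydrolases tested had a change below 0 in pre-existing protein late (median -0.31), as did 14 of 15 in total protein. These are counts of signs, not of calls. Over all proteins the middle quartiles spanned -0.14 to 0.06 in pre-existing and -0.12 to 0.10 in total protein. The ribonuclease Rnaset2 rose in total protein (0.24 ± 0.05). In new protein the cathepsins Ctsd (-0.73 ± 0.16, limma adjusted p = 0.0014), Ctsa (-0.58 ± 0.14, adjusted p = 0.00469) and Ctsh (-0.41 ± 0.13, adjusted p = 0.0309) and the legumain Lgmn (-0.83 ± 0.21, adjusted p = 0.00874) fell, and Rnaset2 rose (0.96 ± 0.13, adjusted p = 3.13e-06). Of 4 sorting proteins tested in total protein, the receptor Sort1 fell (-0.43 ± 0.08). None of 5 Ragulator and Rag proteins, 2 other membrane proteins, 3 pump isoforms and assembly factors or 2 transcription factors (Tfe3 0.21 and Mitf 0.02) was called in total protein late.

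Cell type markers moved between the arms as well. In total protein late, 4 of 5 macrophage markers tested were lower in LPS cells (Csf1r -1.62, Apoe -1.30, Lyz2 -0.49 and Mrc1 -0.46). The other, Fcgr1, was not called (0.29 ± 0.22) and was higher in LPS in 6 of 6 pairs. At 24 h the summed ratio of the 5 was 5 to 5.1 in LPS and 7.35 to 8.44 in mock samples. Of 5 granulocyte markers Ngp (-1.28) and Ltf (-1.19) were lower and S100a9 was higher (0.15), with sums of 7.54 to 9.93 in LPS and 10.6 to 13.9 in mock samples, and of 3.82 to 3.9 in LPS and 9.71 to 9.9 in mock samples at 24 h. Of 2 erythroid and platelet markers Pf4 was lower (-0.69) and Ca2 was not called (-0.05), and 1 of them lacked a value in some samples, so no sum is given. None of 4 dendritic cell markers (Itgax, H2-Ab1, H2-Aa and Cd74) was called, with sums of 3.27 to 4.34 in LPS and 3.59 to 4.35 in mock samples, and of 3.16 to 3.94 in LPS and 4.32 to 5.08 in mock samples at 24 h. The dendritic markers Flt3, Zbtb46, Ciita and Cd209a, the macrophage marker Mertk and all 6 lymphocyte markers were in no group. Adgre1 (F4/80), named by its older symbol Emr1 in the table, had too few values to be tested. How far these shifts enter the lysosomal values was not tested.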

How the data were processed

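Pulsed-SILAC mass spectrometry gave M and H channels of 42 trypsin runs (84 of 88 samples; the others were AspN and LysN digests at 0 h). Per the file headers, the authors deposited for each protein group and run the ratio M/L, H/L and H/M, un-normalised and normalised, with the ratio count (peptide pairs behind it). The deposited intensity of each channel is summed over peptides, and iBAQ intensity is that sum divided by the number of possible peptides. Column names are those of MaxQuant per the file headers, whose version and settings the sources used here do not give. Per the submitters' processing notes the build was mm9. No per-sample column was left unmatched (0).

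Of 6266 groups, 90 reverse, 97 contaminant and 216 site-only groups were left out. Un-normalised ratios were divided by the run factor, and log2 H/L, M/L, their sum, and H/M (without the factor) were fitted as means of 21 groups with limma 3.58.1 in R 4.3.3. Contrasts were LPS minus mock over 6, 9 and 12 h (late), over 1, 2 and 3 h (early), at each time, late minus early, and each arm against 0 h. A protein needed 4 of 6 values in each late arm. P-values were adjusted by the Benjamini-Hochberg method across every protein tested in a comparison, with calls under 0.05. Replacement slopes (of -log2(1 + H/M) against hours, 0.5 to 12 h) needed 12 of 18 values per arm, with half-time -1/slope. Precision is limited by peptide pairs, which are not independent molecules, so no counting interval was made. On simulated H/L data the late test of new protein recovered 55.9% of 195 proteins changed by 1 on the log2 scale. It made 5 false calls with 3316 proteins tested. The slope test recovered 74.5% of 200 changed by 0.05 per h, with 8 false calls and 3342 tested. The simulated runs varied independently, without the link between same-numbered runs. Smaller changes, and pre-existing and total protein, were not simulated.

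Replicate numbers paired samples in M/L, where every same-numbered pair of runs deviated together (r over 2628 proteins from 0.143 to 0.661). In total protein r was above 0 for every pair but as low as 0.026, and in H/L and H/M it was below 0 for some. The members and lists were chosen with earlier results of these data known. Shown sample by sample were the 4 smallest p-values in new protein late and the 2 highest peptide-pair counts of each class; named with a change were called members and the highest and lowest of a class. Gusb's replicate values and the counts of the replicate gap were chosen after their values were seen. Alternatives were other scalings, ratio columns, filters, windows, single runs and the replicate block. Tables and figures were made in Python 3.11.15 (pandas 2.3.3, numpy 2.4.6, matplotlib 3.10.9).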

Additional observations from a re-analysis of the deposited data

Results flagged for a closer look

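The LPS effect on new protein differed between late and early times for 3 hydrolases, by a test of the difference itself. The late minus early change was -0.81 ± 0.21 for Lipa, -0.75 ± 0.21 for Asah1 and -0.73 ± 0.17 for Man2b1 (log2, limma adjusted p = 0.0139, 0.0291 and 0.0056), each with 6 samples per arm and window. Asah1 missed the threshold with M/L and H/L centred separately in each run, and none of the 3 was called without the run factor.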

How the results depend on the processing

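Counts of members called are given against 5 (new), 30 (pre-existing), 28 (total) and 5 (H/M) of 46 late, 12 (new) and 35 (total) of 45 at 24 h, 3 for late minus early, 31 for mock against 0 h and 7 for the slope difference. Without the run factor they were 0, 0 and 0 for new, pre-existing and total protein late, 1 and 0 for new and total at 24 h, 0 for late minus early and 0 for mock against 0 h. Without the factor but with the replicate block, chosen after seeing the data, they were 4 (2 higher, 2 lower), 2 and 3 late, 1 for late minus early and 10 for mock against 0 h. Leaving out LPS 12 h replicate 2 as well gave 6, 28 and 26. The cause of the factor's size in that run was not tested. With M/L and H/L centred separately in each run new protein late gave 10, and with the deposited normalised ratios it gave 19, H/M 8, total at 24 h 20 and late minus early 21. Summed intensities gave 3 for new, 14 for total and 1 for H/M. Subtracting the 0 h reading gave 0 of 34 for new protein and 2 of 19 for the slope difference, with fewer members left to test. The slope difference gave 13 over 0.5 to 24 h. The mock slope median was -0.0109 over 2 to 12 h, -0.0116 over 0.5 to 24 h and -0.0113 with the 0 h H/M subtracted. The counts of this section stand without the shares of all proteins called, so they show only how a count moves with the setting.

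The replicate block gave 8 for new protein late, 38 for pre-existing, 35 for total and 5 for H/M. It changed 7 calls in total and 3 in new protein; same-numbered samples deviated together less firmly in these measures than in M/L. With a single replicate number, whose lone samples are assumed to vary like the other groups, the counts were 0 to 0 for new, 0 to 6 for pre-existing, 5 to 5 for total, 0 to 0 for H/M and 2 to 2 for the slope difference, and the mock slope median was -0.00916 to -0.00686. With a single late run left out they were 3 to 5 for new (3 without mock 6 h replicate 1), 28 to 31 for pre-existing, 25 to 30 for total and 4 to 6 for H/M. Among called members, directions turned for H/M of Atp6v1e1 (-0.02) and Atp6v1g1 (-0.22) with the deposited normalised ratios. Without the run factor, with or without the block, they turned for Atp6v1a in pre-existing (0.04) and total protein (0.02) and for Atp6v1b2 in total protein (0.06). The cause was not tested. Depth limits the rarer members most: tested members had a median of 2.5 (Idua) to 197 (Atp6v1a) M/L pairs per run.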
